A study of Mus musculus with 2 samples.

Results

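The 4 TCF/LEF family genes Tcf7, Lef1, Tcf7l1 and Tcf7l2 were examined in a map of TCF1 on chromatin from immature γδ thymocytes. Each locus was taken as a fixed window of the mm9 genome: chr11:52030000-52130000 for Tcf7 (100 kb), chr3:130770000-130970000 for Lef1 (200 kb), chr6:72530000-72790000 for Tcf7l1 (260 kb) and chr19:55770000-56060000 for Tcf7l2 (290 kb). Every listed TCF1 interval with any base in a window was a member, which gave 74 of 104683 intervals. The windows are defined by position, and no measured value enters their rule. The members and measures were still chosen with earlier results of these data known. No gene, exon or promoter of mm9 was at hand, so an interval is placed in a window and not in a part of a gene. In the RefSeq gene order of a later build (GRCm38.p6), the adjacent protein-coding genes are Skp1 and Vdac1 for Tcf7, Rpl34 and Hadh for Lef1, Tgoln1 and Kcmf1 for Tcf7l1, and Vti1a and Habp2 for Tcf7l2. How much of each window these neighbours fill was not analysed here.

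The series comprised 1 chromatin immunoprecipitation library, made with an antibody against TCF1, and 1 input library made without antibody. Both came from γδ T cells sorted from the thymus of C57BL/6 mice of the genotype TCRbeta KO, Sox13tg+, Sox13 ECFP KI/+, that is, without TCRβ, with a transgene for Sox13, and with ECFP knocked into 1 of the Sox13 alleles. The sorted cells were CD24+ with low or no CFP, and the stated number used was 1000000. No group without the transgene was analysed here. Its promoter, the age of the mice and the number pooled are each not given in the sources used here. Values come from the TCF1 library, and the input library was not analysed here, so there was no replicate, no input value beside an interval and no test between conditions, and read depth is unknown.

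TCF/LEF proteins bind DNA through a shared HMG box, bend it, and act with partners: with β-catenin, which is stabilised by Wnt signalling, they activate transcription, and with Groucho/TLE corepressors they repress it. TCF1, the product of Tcf7, is needed early for T lineage specification, and LEF1 acts beside it in developing thymocytes with partly overlapping roles. TCF7L1, also called TCF3, is best known as a repressor in stem cells, and TCF7L2, also called TCF4, as the main mediator of Wnt signals in intestinal epithelium. The series was made as a baseline map of TCF1 positions, read here at the genes of TCF1's own family.

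The sequence of the intervals themselves was not used, for want of the mm9 genome. RefSeq gave 9 start-site sequences for the 4 genes (GRCm38.p6; 250 bases before to 50 after each annotated start), with 2 for Tcf7, 4 for Lef1, 1 for Tcf7l1 and 2 for Tcf7l2. They were searched on both strands for the TCF/LEF core CTTTGA and for the longer CTTTGAT, which contains it. Of the 4 for Lef1, 2 overlap for most of their length, so the 9 are not all separate. C and G made up 42.0% to 76.3% of each, and the shares over all sequences given next were not matched for this. The longer form was in none of the 9, and in 3.73% of all 32851 such sequences of the table. CTTTGA was in 1 of the 9, beside 16.0% of all sequences. That 1 belongs to the Lef1 start farthest along the gene, and it holds the core 2 times, both on the minus strand, so that the plus strand printed here reads TCAAAG. The stretches are shown because they are the only copies of the core in the start-site sequences of the family, with the core in capitals, each 5′ to 3′ on the plus strand of GRCm38.p6, at chr3:131156102-131156131 and chr3:131156162-131156191:
Lef1 core, beginning 180 bases before the start: taaaatacatggTCAAAGgaaaataggtat
Lef1 core, beginning 120 bases before the start: cattgtctgttcTCAAAGtcaggtcttgca
The 5 sequences for the starts of Tcf7, Tcf7l1 and Tcf7l2 therefore held neither form. These sequences are of another build than the intervals, so none of them was placed against an interval, and a match is a string of letters and not a measured site.

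TCF1 intervals were listed in all 4 windows, which is usual for windows of these sizes. Of the other windows of the same size, 10.6% held none on chromosome 11 and 2.82% on chromosome 3. The share was 1.96% on chromosome 6 and 0.503% on chromosome 19. The Tcf7 window held 12 (95% exact Poisson interval 6.20 to 21.0), the Lef1 window 18 (10.7 to 28.4), the Tcf7l1 window 21 (13.0 to 32.1) and the Tcf7l2 window 23 (14.6 to 34.5). These limits cover counting error only and treat intervals as independent, which makes them too narrow where intervals cluster. Per 100 kb, the values were 12 at Tcf7 (6.20 to 21.0), 9 at Lef1 (5.33 to 14.2), 8.08 at Tcf7l1 (5.0 to 12.3) and 7.93 at Tcf7l2 (5.03 to 11.9). All of these ranges overlapped, so the order of the 4 densities was not resolved. The intervals covered 3.30% of the Tcf7 window, 2.25% of the Lef1 window, 2.06% of the Tcf7l1 window and 1.91% of the Tcf7l2 window.

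**Figure D1:**
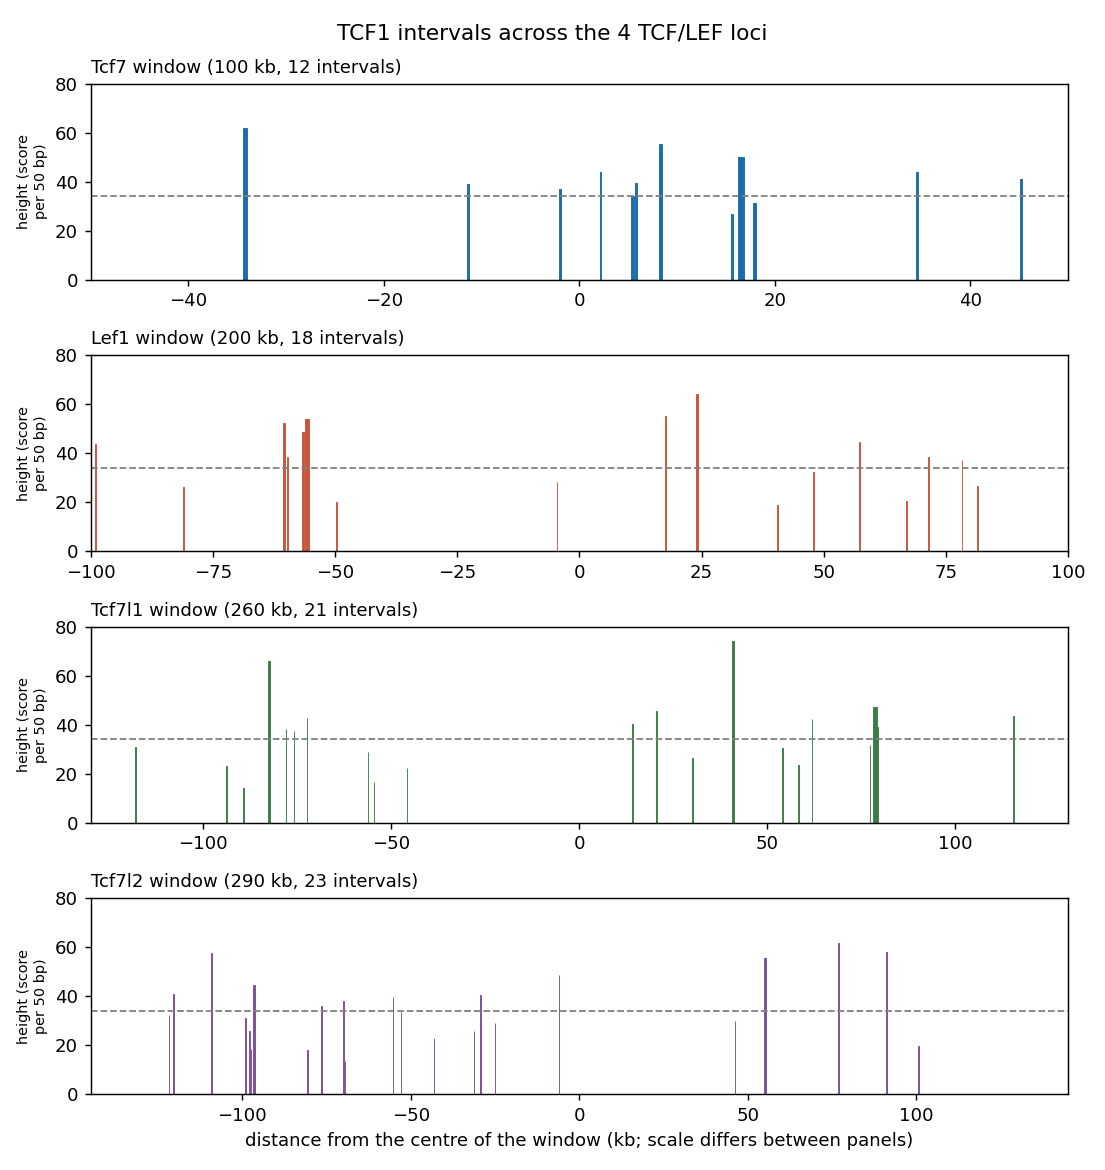
TCF1 intervals across the windows of Tcf7, Lef1, Tcf7l1 and Tcf7l2, by distance from the window's centre (kb) and height (score per 50 bp). Each bar is 1 interval and the dashed line is the median of the whole list, 34.0; the highest bar is that of Tcf7l1 at 74.1, and the Tcf7l2 window is empty for 52.0 kb to the right of the bar nearest its centre, at 48.8.

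Set against their own chromosomes, Lef1 and Tcf7l1 stood higher than Tcf7 and Tcf7l2. The Lef1 window was 2.91 times as dense as chromosome 3 (1.73 to 4.60), which averaged 3.09 intervals per 100 kb. The Tcf7l1 window was 2.36 times as dense as chromosome 6 (1.46 to 3.61), which averaged 3.42. At Tcf7 the ratio was 1.89 (0.977 to 3.30) against 6.35 per 100 kb on chromosome 11, and at Tcf7l2 it was 1.53 (0.969 to 2.29) against 5.19 on chromosome 19. The highest density per 100 kb, at Tcf7, was on the chromosome with the highest average. The lowest, at Tcf7l2, was on the chromosome with the next highest average, so density did not follow the average across the loci. The ranges of the 4 ratios overlapped one another.

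Other windows of the same size, tiled along the same chromosome, gave the background. Of 781 such windows on chromosome 3, 38 (4.87%) held at least the 18 intervals of Lef1, and their median count was 5. On chromosome 6, 51 of 562 windows (9.07%) held at least the 21 of Tcf7l1, with a median of 6. For Tcf7 it was 203 of 1186 windows on chromosome 11 (17.1%, median 4), and for Tcf7l2 40 of 199 on chromosome 19 (20.1%, median 10). Lef1 was thus in the upper 5% of its chromosome by count, while windows as full as those of Tcf7 and Tcf7l2 were not rare on theirs. All windows were counted, including those with no interval, which made up 10.6% on chromosome 11 and 2.82% on chromosome 3.

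These ranks depended on the windows chosen for comparison. Among windows of the same size on all 19 autosomes, the shares with at least as many intervals were 7.78% for Tcf7, 11.6% for Lef1, 13.3% for Tcf7l1 and 13.4% for Tcf7l2, so that Tcf7 and not Lef1 then had the smallest share. Among windows within 5 Mb on either side the shares were 8.0% at Tcf7 (8 of 100 windows), 4.0% at Lef1 (2 of 50), 5.0% at Tcf7l1 (2 of 40) and 19.4% at Tcf7l2 (7 of 36). The windows directly beside the loci differed too. The Tcf7 window of 12 lay between windows with 5 and 10 intervals, and the Lef1 window of 18 between 7 and 8. The Tcf7l1 window of 21 lay beside one with 26 and one with 13, and the Tcf7l2 window of 23 beside one with 23 and one with 9. At Tcf7 and Lef1 the locus held more than both neighbours, which was not so at the other pair.

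**Figure D2:**
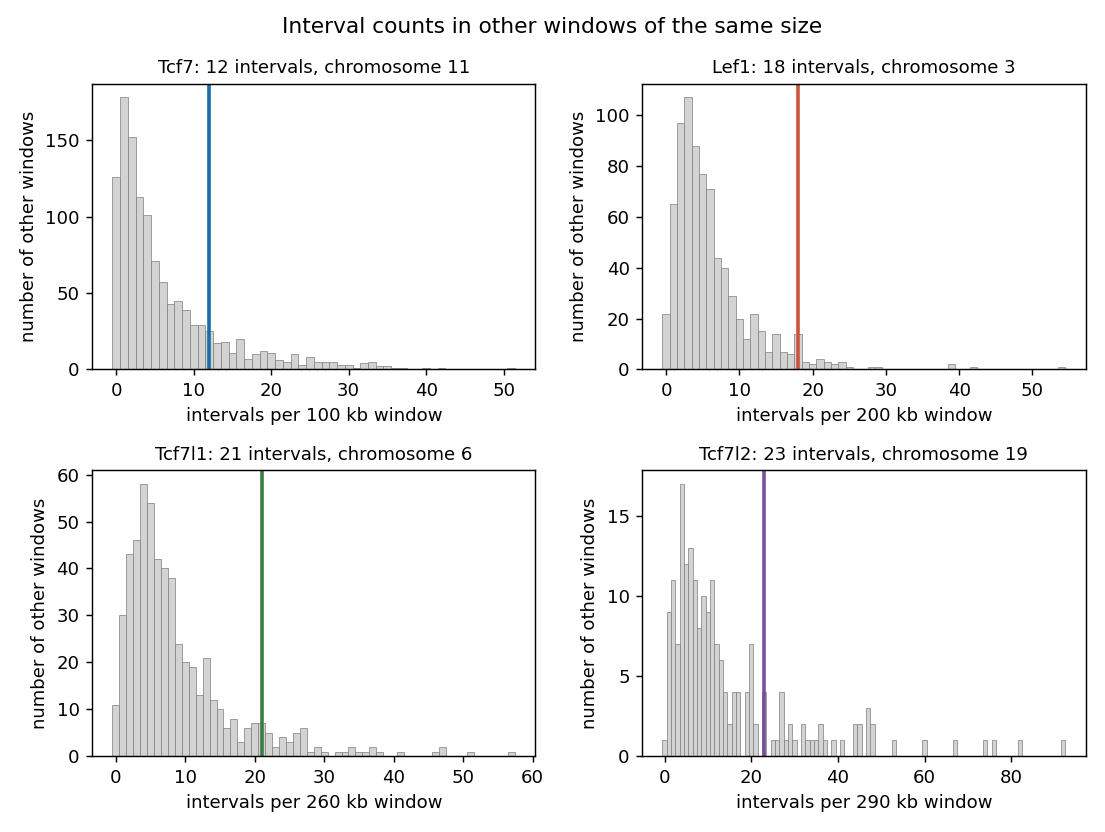
Number of TCF1 intervals in other windows of the same size on the same chromosome (grey; x axis intervals per window, y axis number of windows), with the count of the locus as a coloured line. The Lef1 line at 18 lies to the right of the median of 5, within a tail that reaches 54. The Tcf7l2 line at 23 lies to the right of the median of 10, within a tail that reaches 92.

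The height of an interval was its score divided by its width and multiplied by 50 bp, because the deposited score grew with width. High intervals were about as frequent among the members of the 4 loci as in the list, and low ones were less frequent. The median was 40.3 at Tcf7 (95% order-statistic interval 34.3 to 49.9), 38.4 at Lef1 (26.5 to 50.8), 37.6 at Tcf7l1 (26.4 to 42.6) and 33.5 at Tcf7l2 (26 to 40.9), beside 34.0 for the whole list. Only the Tcf7 range lay above the list median, and by little. The chromosome medians were 37.6 for chromosome 11, 29.8 for chromosome 3, 31.9 for chromosome 6 and 35.8 for chromosome 19, and each lay inside the range of its locus. Of the 74 members, 43 were higher than the list median (58.1%, beside 49.9% of the list), 17 exceeded the 75th percentile (23.0%, beside 25% of the list by construction) and 7 exceeded the 90th (9.46%, beside 10%). Fewer were low, with 9 below the 25th percentile (12.2%, beside 25% of the list by construction). No member reached the 99th percentile, 77.9.

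Tcf7 had no low interval. Its 12 heights ran from 26.8 to 62.1, and 10 of them exceeded the list median. The other loci reached down to 18.8 at Lef1, 14.1 at Tcf7l1 and 13.5 at Tcf7l2, with 3, 2 and 4 intervals below the 25th percentile. The highest intervals stood at 62.1 for Tcf7, 64.0 for Lef1, 74.1 for Tcf7l1 and 61.9 for Tcf7l2. A tallest interval of at least that height was found in 25.6% of the other windows for Tcf7, 19.2% for Lef1, 9.79% for Tcf7l1 and 47.7% for Tcf7l2. By median height, 28.0%, 16.6%, 20.1% and 48.0% of the other windows with an interval were at least as high, in the same order. Among the windows whose count was within 2 of the locus, that share was 33.9% of 118 for Tcf7, 43.8% of 32 for Lef1, 40.7% of 27 for Tcf7l1 and 42.9% of only 7 for Tcf7l2, so the heights were common among equally full windows.

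**Figure D3:**
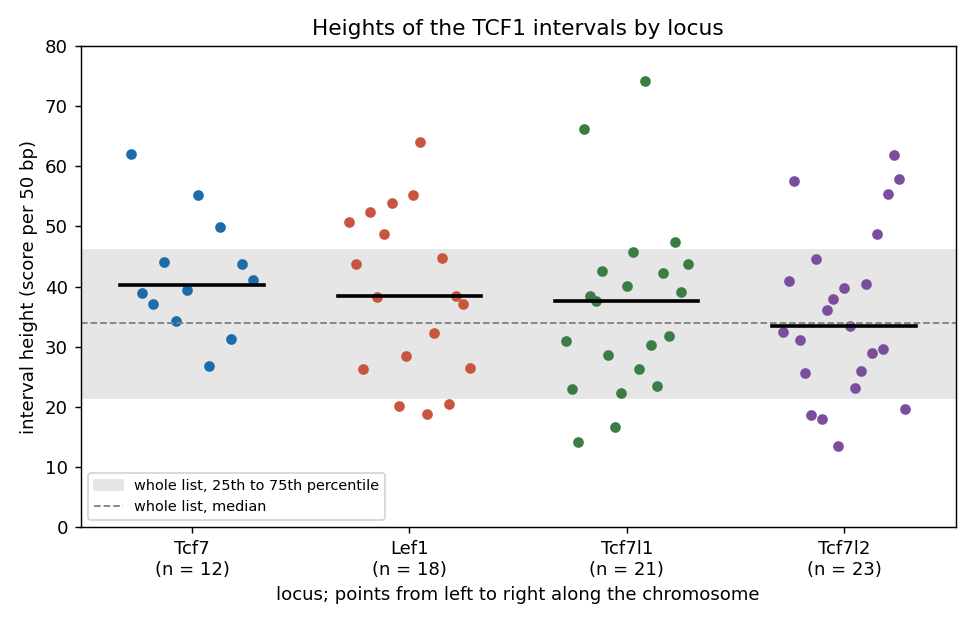
Height (score per 50 bp, y axis) of each TCF1 interval in the 4 loci (x axis), with points in order along the chromosome and black bars at the medians of 40.3, 38.4, 37.6 and 33.5. The grey band spans the 25th to 75th percentile of the whole list (21.5 to 46.1); no point of Tcf7 lies below the band.

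Tcf7 encodes TCF1 itself. No interval of its window was assigned to Tcf7 or to the adjacent genes Skp1 and Vdac1, since no mm9 gene was at hand. The highest interval was chr11:52045551-52046050, 500 bp wide with a score of 620.5 and a height of 62.1, higher than 94.1% of the list. It was also the highest by score, and it stood alone, 26.2 kb from the interval before it and 22.5 kb from the next. The other intervals of the 5 highest lay to the right of the window's centre. They were chr11:52088101-52088450 (height 55.2), chr11:52096251-52096800 (49.9), chr11:52082101-52082200 (44.1) and chr11:52114451-52114600 (43.8). The interval of 49.9 was the widest of the locus at 550 bp, with a score of 549. An interval at least as wide was found in 30.3% of the other windows. It was the middle one of 3 intervals spaced at most 1 kb apart over 2.55 kb, chr11:52095501-52098050, which together held 27.6% of the summed score of the locus. At least 3 intervals beginning within 5 kb were found in 28.9% of the other windows. Of the 12 intervals, 9 lay to the right of the centre and held 67.4% of that score.

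At Lef1, whose product is the family member closest to TCF1 in thymocyte function, the strongest signal fell in separate places. The highest interval was chr3:130893951-130894200, with a height of 64.0 that exceeded 95.2% of the list, and the next was chr3:130887501-130887800 at 55.2, 6.15 kb before it. The widest and highest-scoring interval was chr3:130813851-130814700, 850 bp wide, with a score of 915 and a height of 53.8, and 7.94% of the other windows on chromosome 3 had one at least as wide. It had a neighbour 200 bp away, chr3:130813351-130813650 (height 48.8), and the pair held 32.0% of the summed score. Another pair 3.0 kb before them, chr3:130809401-130810350, had heights of 52.4 and 38.3. These 4 intervals lay within 5.3 kb and held 44.7% of the score of the locus. In 5.76% of the other windows at least 4 intervals began within 5 kb of each other. A stretch of 45.0 kb with no interval followed after 1 more, and only 1 interval, of height 28.4, separated it from a further 22.0 kb without any. The last of the 5 highest, chr3:130770051-130770150 (height 50.8), began 50 bp inside the window, so its membership rests on the border. Narrowing the window by 10% on each side left 14 of the 18 intervals and the same median height, 38.4.

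Tcf7l1 carried the highest interval of the family. This was chr6:72700651-72701200, 550 bp wide, with a score of 815; its height of 74.1 was higher than 98.5% of the list. The second, chr6:72577251-72577750, scored 661 with a height of 66.1, higher than 96.2%. The widest member of the whole family was here as well, chr6:72738001-72739100, at 1100 bp with a score of 1041 and a height of 47.3. An interval at least that wide was found in 4.45% of the other windows on chromosome 6. It had a neighbour on each side, at 600 and 50 bp, and the 3 spanned 2.05 kb with 27.0% of the summed score. As many beginning within 5 kb were found in 24.4% of the other windows. The remaining ones of the 5 highest were chr6:72680451-72680700 (45.8) and chr6:72775251-72775550 (43.7). The 3 highest scores made up 54.3% of the sum over the 21 intervals of the locus. The same share was 52.8% over the 12 of Tcf7, 42.7% over the 18 of Lef1 and 39.4% over the 23 of Tcf7l2. This share was not computed for other windows, and it depends on the number of intervals. The longest stretch without an interval was 59.9 kb, from 72614201 to 72674050, and it divided the locus into 10 intervals before it and 11 after. The earlier ones had a median height of 29.8 and held 30.5% of the score, and the later ones had a median of 40.1 and held 69.5%.

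Tcf7l2 had the most intervals, in the longest window, and the lowest median height, though the ranges of the 4 medians overlapped. Its highest were chr19:55991851-55992050 (height 61.9, higher than 94.0% of the list), chr19:56005951-56006350 (57.9), chr19:55805701-55806000 (57.6), chr19:55969801-55970250 (55.4) and chr19:55908901-55909100 (48.8). The highest score, 757, belonged to the widest interval, chr19:55818051-55818900, which was 850 bp wide with a height of 44.5. One at least as wide was found in 27.6% of the other windows. This interval was the last of 4 within 2.95 kb, chr19:55815951-55818900, the largest group of close intervals in the family. The other 3 of that group were lower than it, at 31.1, 25.7 and 18.6. In 20.6% of the other windows of chromosome 19 at least 4 intervals began within 5 kb of each other. Of the intervals of the window, 18 lay to the left of its centre (median height 33) and 5 to the right (median 55.4). Among the latter were 3 of the 5 highest. A stretch of 52.0 kb with no interval, from 55909101 to 55961100, lay near the middle. Division by side and the longest empty stretch were not computed for other windows, at this locus or the others.

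Width and height were related in the list, and the members were compared at their own width. The list median was 24.9 for intervals of 100 bp, 32.4 for 200 bp and 46.8 for 500 bp. Against the list median of the same width, 9 of 12 intervals were higher at Tcf7, 12 of 18 at Lef1, 13 of 21 at Tcf7l1 and 15 of 23 at Tcf7l2. In all, 49 of 74 (66.2%) were higher, beside 49.9% of the list. The share at the same width was not computed for equally full windows. Members had a median width of 200 bp, the same as the list, and 8 of 74 were at least 500 bp wide (10.8%, beside 9.68%). The 14 members of 100 bp, the narrowest width listed, had heights from 13.5 to 50.8.

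**Figure D4:**
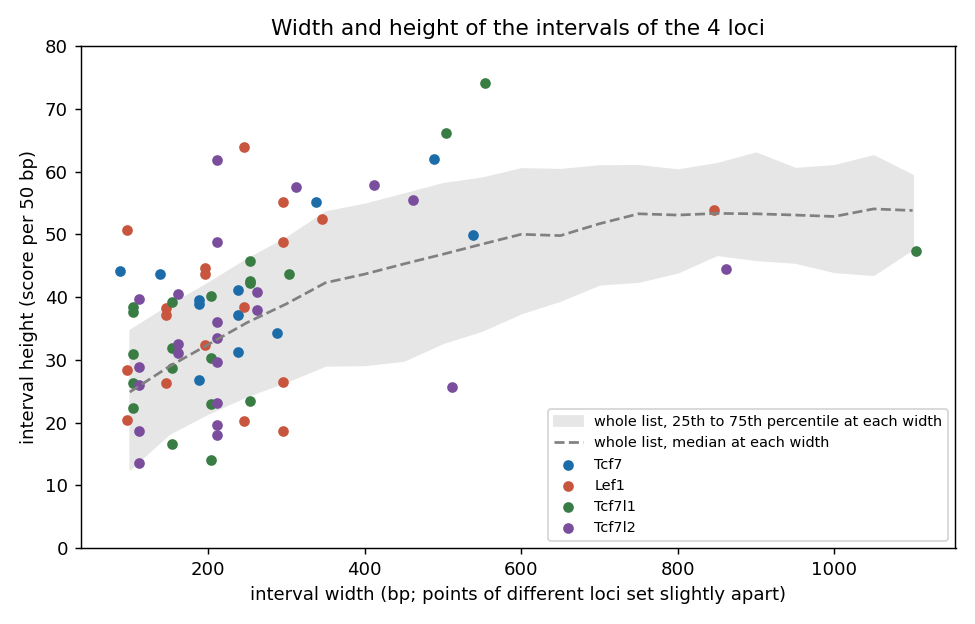
Width (bp, x axis) and height (score per 50 bp, y axis) of the 74 intervals of the 4 loci, over the median and the 25th to 75th percentile of the whole list at each width. Of the 74 points, 49 lie above the list median of their width, and the widest, at 1100 bp, belongs to Tcf7l1.

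At all 4 loci the widest interval had another within 1 kb, but this was not computed for the widest interval of other windows. These 4 are among the 8 members counted next, so the 2 counts are not separate. Of the 8 members of at least 500 bp, 5 had a neighbour that near (62.5%), beside 41.7% of the 10132 intervals of that width in the list. Over all members it was 20 of 74 (27.0%, beside 30.5% of the list), so close spacing was not more frequent in the family as a whole. The 20 formed 8 groups, of which 5 were pairs, 2 had 3 intervals and 1 had 4. The highest interval of each locus lay outside these groups, and of the 20 intervals that were among the 5 highest of a locus, 5 lay inside them. Whether a group is 1 bound region listed in pieces was not tested.

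Selection by score changed the picture for single loci. In the upper 10% of the list by score (at least 453.5), Tcf7 kept 2 intervals, Lef1 1, Tcf7l1 3 and Tcf7l2 3. At that level Tcf7l1 had 1.15 per 100 kb, 3.74 times the 0.309 of chromosome 6, and Lef1 had 0.5, 1.78 times the 0.281 of chromosome 3. The ratio was 2.81 for Tcf7 and 1.72 for Tcf7l2. The Lef1 ratio rests on 1 interval and did not fall steadily with the limit. It was 3.14 in the upper 50%, 3.64 in the upper 25% and 3.80 in the upper 5%. In the upper 10%, 8.36% of the other windows held at least as many as Tcf7l1, and 33.7% at least as many as Lef1. For Tcf7 it was 16.6% and for Tcf7l2 24.1%. In the upper 5% (at least 645) Tcf7l1 still had 3, Lef1 and Tcf7l2 had 1 each, and Tcf7 had none. With counts this small, the loci were not separated. No member was in the upper 1%.

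Just outside the windows, the nearest intervals were chr11:52131901-52132100, 1.9 kb after the Tcf7 window (height 34.1), chr3:130974601-130974850, 4.6 kb after that of Lef1 (56.3), chr6:72793001-72793150, 3.0 kb after that of Tcf7l1 (14.3), and chr19:56083251-56083400, 23.3 kb after that of Tcf7l2 (28.3). Just inside, the members nearest to a border were at 4.7 kb for Tcf7 (height 41.1), 50 bp for Lef1 (50.8), 12 kb for Tcf7l1 (30.9) and 23.2 kb for Tcf7l2 (32.5).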

How the data were processed

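The authors deposited 1 interval list of the TCF1 library, in which each interval has a score. Its build is mm9, as given by the submitters' processing notes. How reads were aligned, how and at what threshold intervals were called, whether the input entered, and what the score measures are each not given in the sources used here. Per the labels' protocols, chromatin was crosslinked with 1% formaldehyde and sonicated, and the library was amplified for 17 cycles and cut to 300 to 500 bp on a gel. Starts fell on multiples of 50 bp and ends 1 bp before them, so ends were read as inclusive and positions are counted from 1. Comparison windows were tiled outward from each locus window between the first and last interval of the chromosome, leaving the locus out, without removing assembly gaps. Shares of windows are descriptions, and no test was made. For each locus the 5 highest intervals, the highest by score and the widest are named. The members, lists and measures were chosen with earlier results of these data known. The counting was tested on simulated data. The alternatives included stricter score limits, joining within 1 kb and other comparison windows. The planned count over other Wnt pathway genes was not run, since it needs an mm9 annotation. Computation used scipy 1.17.1, pandas 2.3.3 and numpy 2.4.6 under Python 3.11.15, and figures matplotlib 3.10.9.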

Additional observations from a re-analysis of the deposited data

How the results depend on the processing

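Of 60 alternative values, 40 stayed close to the value reported and 20 moved. Close meant within 1.5 times for a count, inside the exact 95% binomial interval for a share of windows, and inside the order-statistic interval for a median height. Restricting the list to its upper 50% by score left 9 intervals at Lef1, 8 at Tcf7l1 and 11 at Tcf7l2, and to its upper 10% left 2 at Tcf7, 1 at Lef1, 3 at Tcf7l1 and 3 at Tcf7l2, fewer by construction. The share of other windows with at least as many became 11.5% (Tcf7), 6.66% (Lef1) and 15.5% (Tcf7l1) in the upper 50%, and 33.7% for Lef1 in the upper 10%. Over all autosomes it was 7.78% for Tcf7, 11.6% for Lef1, 13.3% for Tcf7l1 and 13.4% for Tcf7l2. Within 5 Mb, a setting added after seeing the data, it was 8.0% for Tcf7 and 5.0% for Tcf7l1. The median height in the upper 50% was 44.7 at Tcf7l1 and 44.5 at Tcf7l2, which a choice by score raises by construction, and weighting by width gave 43.4 at Tcf7l1. The cause of the other shifts was not tested. Counting by midpoint, joining within 1 kb, shifting the windows and leaving out empty ones moved no value beyond these limits. No paired analysis was possible because the list comes from a single library. The unknown read depth limits statements on low intervals, and an empty stretch is no measure of absent TCF1.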
